A study of Mus musculus with 10 samples.

Results

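Regulatory T cells (Tregs) carry a set of inhibitory surface receptors, and the RNA of 10 of them is described here. The 10 genes, Ctla4, Pdcd1, Lag3, Tigit, Havcr2, Cd96, Cd160, Cd200r1, Cd244 and Cd5, were taken by symbol from a table of 27179 genes. Earlier results of these data were known when they were chosen. All 10 passed the filter on low counts that left 13214 genes. The cells were sorted from C57BL/6 mice as CD4+ TCRb+ cells that carry the YFP of a Foxp3Cre-YFP allele, an allele that drives Cre and the reporter in Foxp3-expressing cells. Control mice (WT) had Foxp3Cre-YFP alone, and Maf-KO mice had Maffl/fl together with Foxp3Cre-YFP, so every group, controls included, carries the Cre reporter allele. Tissue was the gut (colon plus small intestine, taken as 1 sample) or the spleen. The 10 RNA-seq libraries comprise 2 of WT gut, 2 of Maf-KO gut, 3 of WT spleen and 3 of Maf-KO spleen. The sources used here give neither the age nor the sex of the mice. The labels do not say that the replicates of a group came from separate mice, so p-values measure the spread between these libraries, which may be technical.

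Coinhibitory receptors damp the activation of the T cell that bears them or, on a Treg, act on the cell it meets. CTLA-4 binds CD80 and CD86 on antigen-presenting cells with higher affinity than the activating receptor CD28, and Tregs use it to strip these ligands from their partners. PD-1 is engaged by PD-L1 and PD-L2, TIGIT and CD96 compete with the activating receptor CD226 for nectin-family ligands, and LAG-3 binds MHC class II. Activated and tissue Tregs are known for carrying more of several of these receptors than resting Tregs of lymphoid organs, and c-Maf, the product of Maf, is a transcription factor known to act on coinhibitory receptor genes in conventional T cells.

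Libraries held 8567035 to 13983965 counts, so that 3 counts correspond to 0.215 to 0.35 counts per 1000000 (CPM, scaled to the library's TMM-normalised total). The CPM of the targeted gene Maf followed the labels, with 108 and 109 in WT gut, 24.0 to 46.0 in WT spleen and 0.195 to 1.10 in the 5 Maf-KO libraries. Foxp3, which defines the sorted lineage, had 157 to 212 CPM in gut and 114 to 134 CPM in spleen, and Cd4 and Cd3e were abundant in all 10 libraries. Genes of other cells were present at levels that differed between tissues and libraries. The 17 markers of CD8, NK and innate lymphoid cells summed to 2747 to 4685 CPM in gut and 87.9 to 211 CPM in spleen, of which Gzma, a granzyme gene, made up 2611 to 4501 CPM in gut. Of the 16 tested, 3 were called higher in gut in each genotype, which were Gzma, the chemokine gene Xcl1 (32.4 to 62.7 CPM in gut, 2.23 to 3.58 in spleen) and the perforin gene Prf1 (26.8 to 48.7 CPM in gut, 9.98 to 22.7 in spleen). Called lower in gut were 3 of the 16 in WT and 2 in Maf-KO, with Cd8b1 among them in both (edgeR, adjusted p under 0.05). Of all genes, 28% were called either way in WT and 28.6% in Maf-KO. The median log2 fold change of the 16 was -1.16 in WT and -0.70 in Maf-KO. Of the other markers in that list, Cd8a was at 6.04 to 11.1 CPM in gut and 8.58 to 22.6 in spleen. Ncr1 was at 0.320 to 0.880 CPM in gut and 0.877 to 5.62 in spleen, and Klra8 and Klra1 at 0 counts in all 4 gut libraries. Klrb1c was at 3.52 to 10.4 CPM in gut and 6.24 to 16.7 in spleen, and Tyrobp at 8.39 to 13.1 and 8.90 to 31.7. Fcer1g was at 6.79 to 19.15 CPM in gut and 6.435 to 28.3 in spleen, and Tcrg-C1 at 2.72 to 5.22 and 1.845 to 6.39. The 11 markers of B and plasma cells summed to 1180 to 6453 CPM in gut, mostly Jchain, and 203 to 500 CPM in spleen, and 15 myeloid markers to 121 to 277 CPM in gut and 149 to 867 CPM in spleen. The 10 mast cell and eosinophil markers summed to 68.3 to 111 CPM in gut, mostly Kit, and 6.05 to 20.1 CPM in spleen. Epithelial markers summed to 143 to 176 CPM in gut and 32.6 to 68.6 CPM in spleen, mostly Epcam in both tissues. The 11 markers of pancreatic acinar cells summed to 40.2 to 182 CPM in WT gut, 16.0 to 27.3 CPM in Maf-KO gut and 6.39 to 26.8 CPM in spleen. In Maf-KO gut Cela1 made up 14.5 and 25.1 CPM of this, and 8 of the 11 had 0 counts. All 6 tested were called higher in gut in WT and 0 in Maf-KO (edgeR, where 0 had an unadjusted p under 0.05). In bulk libraries, fewer cells that carry a gene and less RNA per cell cannot be told apart.

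Set per gene length, the order of the receptors differed between the tissues. On the deposited log2 FPKM scale, given here as geometric means over a group's libraries, Ctla4 led in gut with 2419 FPKM in WT and 2435 FPKM in Maf-KO. Tigit (331 FPKM), Cd5 (259 FPKM) and Cd96 (259 FPKM) followed in WT gut with overlapping ranges. Pdcd1 (153 FPKM) and Cd200r1 (135 FPKM) overlapped each other, and below them Cd160 (41.2 FPKM), Havcr2 (20.2 FPKM), Lag3 (16.5 FPKM) and Cd244 (1.32 FPKM) were separate from their neighbours. In Maf-KO gut Cd5 (355 FPKM) was second and separate from Tigit (320 FPKM), which overlapped Cd96 (319 FPKM). Below these came Cd200r1 (88.7 FPKM) and Pdcd1 (76.3 FPKM), which overlapped, Cd160 (57.3 FPKM), Lag3 (23.7 FPKM) and Havcr2 (16.5 FPKM), which overlapped, and Cd244 (2.42 FPKM). In spleen Cd5, a scavenger-family receptor that dampens T cell receptor signals, led with 289 FPKM in WT and 281 FPKM in Maf-KO. In WT spleen Ctla4 (218 FPKM), Cd96 (193 FPKM), Pdcd1 (145 FPKM) and Tigit (112 FPKM) followed, each overlapping the next. In Maf-KO spleen Cd96 (216 FPKM) stood apart from Ctla4 (167 FPKM), and Ctla4, Pdcd1 (133 FPKM) and Tigit (127 FPKM) overlapped in that order. Cd200r1, Cd160, Lag3, Havcr2 and Cd244 took the last 5 places in both spleen groups, from 41.2 and 50.1 FPKM for Cd200r1 to 0.982 and 0.718 FPKM for Cd244. Among these, Cd160 overlapped Lag3 in both groups, Havcr2 overlapped Cd244 in WT and Lag3 overlapped Havcr2 in Maf-KO.

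The 250 bases before the annotated start are shown for the 3 receptors with the largest fold changes called between the tissues in both genotypes (Ctla4, Havcr2 and Cd160) and for Pdcd1, which was not called in either. The sequences are from RefSeq (GRCm38.p6), which held this window for 8 of the 10 receptors, and run 5′ to 3′ along the gene's strand. The search covered 5 patterns on both strands, and capitals mark a match. Of 32851 promoter windows of 250 bases, 20.4% held the NFAT core GGAAAA, 16.1% the Maf half-site TGCTGA, 6.75% the AP-1 site TGANTCA, 3.17% the forkhead site TGTTTAC and 1.34% the NR4A element AAAGGTCA.
Ctla4, chr1:60908775-60909024, plus strand, NFAT core on the opposite strand: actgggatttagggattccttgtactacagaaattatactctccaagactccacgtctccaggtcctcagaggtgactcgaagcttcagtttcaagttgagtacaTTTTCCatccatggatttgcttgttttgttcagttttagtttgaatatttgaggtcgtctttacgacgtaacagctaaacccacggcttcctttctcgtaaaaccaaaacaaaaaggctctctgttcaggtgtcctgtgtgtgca
Havcr2, chr11:46454681-46454930, plus strand, AP-1 site: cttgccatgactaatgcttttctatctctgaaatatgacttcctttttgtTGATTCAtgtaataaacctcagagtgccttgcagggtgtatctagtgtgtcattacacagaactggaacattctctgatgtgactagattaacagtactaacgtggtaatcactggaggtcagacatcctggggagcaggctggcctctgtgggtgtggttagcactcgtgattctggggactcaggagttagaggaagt
Cd160, chr3:96829352-96829601, minus strand, outermost annotated start, Maf half-site: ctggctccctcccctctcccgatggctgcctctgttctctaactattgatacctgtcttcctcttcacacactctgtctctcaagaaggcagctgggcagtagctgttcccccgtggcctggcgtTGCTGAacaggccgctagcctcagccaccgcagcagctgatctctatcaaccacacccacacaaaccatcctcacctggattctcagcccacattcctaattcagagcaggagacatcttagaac
Pdcd1, chr1:94052554-94052803, minus strand, no match: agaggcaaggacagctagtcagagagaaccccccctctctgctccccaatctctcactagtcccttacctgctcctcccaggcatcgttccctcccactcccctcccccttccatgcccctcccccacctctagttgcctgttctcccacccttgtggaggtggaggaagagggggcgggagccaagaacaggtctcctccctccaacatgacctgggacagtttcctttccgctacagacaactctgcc
The match lay 145 bases upstream of the start in Ctla4, 200 in Havcr2 and 125 in Cd160. A match is a run of letters and shows no binding, and a window without one shows nothing about the factor. Among the other windows, that of Tigit held the NFAT core 14 bases upstream of an annotated start, that of Cd244 an AP-1 site at 122 and a Maf half-site at 175. A further Cd160 window, at an inner annotated start (chr3:96814522-96814771), held none. Those of Cd96, called between tissues in both genotypes, and Cd5, called in Maf-KO, held none either.

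**Figure D1:**
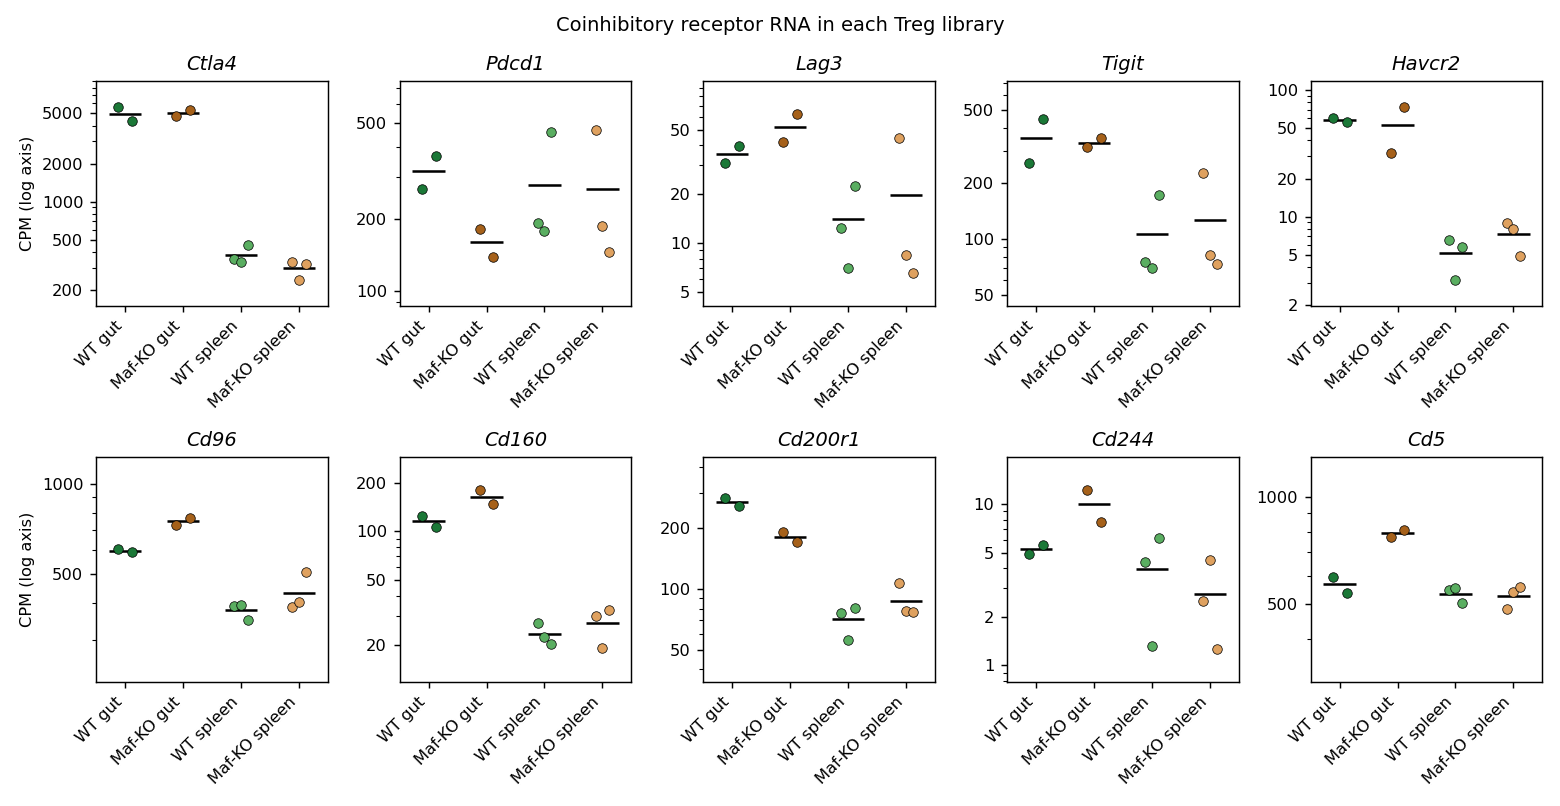
RNA of the 10 receptors in CPM on log axes with a range of their own, with points for libraries and bars for group means. All 4 gut libraries lie above all 6 spleen libraries for Ctla4, Tigit, Havcr2, Cd96, Cd160 and Cd200r1, while Pdcd1 overlaps.

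Gut against spleen, the tissue comparison within each genotype, gave the widest differences in these receptors. In WT Tregs 6 of the 10 receptors were higher in gut and none was lower (edgeR, adjusted p under 0.05), where 14.7% of all genes tested were called higher, 13.3% lower and 28% either way. In Maf-KO Tregs 7 of 10 were higher and none was lower, where 14.4% of all genes were called higher, 14.1% lower and 28.6% either way. At an unadjusted p under 0.05 there were 6 receptors in WT, where 39.9% of all genes passed, and 8 in Maf-KO, where 39.8% did. With the shared title number as a block (limma, random effect), 5778 genes were called in Maf-KO. Without a block edgeR called 3774 there, and limma-voom 1882 higher and 1810 lower. Ctla4, Havcr2, Cd160, Cd200r1 and Cd96 were called in both genotypes. The median log2 fold change of the 10 was 1.53 in WT and 1.39 in Maf-KO, and that of all genes tested was -0.03 and -0.02. In 6 of 10 receptors all 4 gut libraries were above all 6 spleen libraries, which held for 16.7% of all genes. Within WT 7 receptors were higher in gut without overlap, where 25.9% of all genes were, and within Maf-KO 8 were, where 27.5% were. Scaling by library totals without TMM lowered the median log2 fold change of all genes by 0.27 in WT and 0.26 in Maf-KO. It turned the split of called genes from 1942 higher and 1761 lower to 1327 higher and 3938 lower in WT, and from 1906 higher and 1868 lower to 1243 higher and 3701 lower in Maf-KO. The receptors called in the tissue comparisons kept their direction under that scaling, with 6 called higher in each genotype. Cd244 in Maf-KO lost its call under it.

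Ctla4 lies on chromosome 1 (60909025 to 60915832, GRCm38). Its CPM was 5644 and 4325 in WT gut and 4791 and 5323 in Maf-KO gut. In spleen it was 354, 333 and 456 CPM in WT and 331, 239 and 320 CPM in Maf-KO. The lowest gut library was thus far above the highest spleen library. Ctla4 was 13.1-fold higher in gut in WT (95% interval 9.59 to 17.9, log2 fold change 3.71, SE 0.20, edgeR adjusted p = 1.91e-06). In Maf-KO it was 17.1-fold higher (12.5 to 23.4, log2 fold change 4.09, SE 0.20, edgeR adjusted p = 1.10e-06). By number of counts Ctla4 ranked 7th to 13th of all genes in the gut libraries and 259th to 746th in the spleen libraries. It made up 64.2 to 71.7% of the counts of the 10 receptors in gut and 15.2 to 22.0% in spleen. The 10 receptors together took 0.597 to 0.717% of all counts in gut and 0.167 to 0.225% in spleen.

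Pdcd1, the gene of PD-1 (chromosome 1, 94038305 to 94052553), showed no call between tissues. It had 267 and 367 CPM in WT gut and 181 and 139 CPM in Maf-KO gut. In spleen it had 192, 179 and 458 CPM in WT and 469, 187 and 146 CPM in Maf-KO. Gut and spleen overlapped in both genotypes, with replicate 3 of WT spleen and replicate 1 of Maf-KO spleen above every gut library. The log2 fold change between tissues was 0.20 in WT (95% interval -0.94 to 1.34, edgeR adjusted p = 0.805) and -0.74 in Maf-KO (-1.91 to 0.43, edgeR adjusted p = 0.331). Without those spleen libraries it was 0.77 in WT (edgeR adjusted p = 0.0282, within 0.0282 to 0.994 over all alternatives), a setting added after the values were seen.

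Tigit and Cd96 encode receptors for nectin-family ligands such as CD155. Tigit (chromosome 16, 43626137 to 43665125) had 256 and 446 CPM in WT gut, 314 and 350 CPM in Maf-KO gut, 74.7, 69.6 and 174 CPM in WT spleen and 226, 82.2 and 73.1 CPM in Maf-KO spleen. Every gut library was above every spleen library, the nearest being WT gut replicate 1 and Maf-KO spleen replicate 1. Tigit was 3.31-fold higher in gut in WT (95% interval 1.49 to 7.36, edgeR adjusted p = 0.0314). In Maf-KO the ratio was 2.61 (1.18 to 5.78, edgeR adjusted p = 0.0706) and did not pass. With the title number that a gut and a spleen library share as a block, the Maf-KO difference passed, with an adjusted p of 0.00161 (limma, random effect) and 9.73e-06 (edgeR, fixed term). Maf-KO spleen replicate 1 shares its title number with no gut library, so the fixed term in effect leaves it out. Leaving it out without a block gave the same log2 fold change, 2.10 in place of 1.39 (edgeR adjusted p = 0.00841). These settings are thus not separate observations. The Maf-KO difference also passed without WT spleen replicate 3 (edgeR adjusted p = 0.0421), within 9.73e-06 to 0.216 over all alternatives. The WT call was lost without WT gut replicate 3 (edgeR adjusted p = 0.180), WT spleen replicate 1 (0.0938) or WT spleen replicate 2 (0.0981), within 4.27e-05 to 0.180 over all alternatives. The gene model of Tigit overlaps Zbtb20 and Mir568, and the strand setting of the counting is not recorded in the labels, so reads of the overlap cannot be told apart.

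Cd96 (chromosome 16, 46035652 to 46120248, overlapping the predicted gene Gm50487) had 604 and 592 CPM in WT gut and 729 and 769 CPM in Maf-KO gut. In spleen it had 391, 393 and 349 CPM in WT and 387, 403 and 505 CPM in Maf-KO. The tissues did not overlap, and the spread within groups was narrow apart from Maf-KO spleen replicate 3. The change was smaller than for the receptors above, 1.58-fold in WT (log2 fold change 0.66, SE 0.13, edgeR adjusted p = 0.00431) and 1.74-fold in Maf-KO (0.80, SE 0.13, edgeR adjusted p = 0.00159).

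Lag3 and Havcr2 encode LAG-3 and TIM-3, the latter a receptor for galectin-9 among other ligands. Lag3 (chromosome 6, 124904359 to 124912434) had 31.1 and 39.3 CPM in WT gut, 41.8 and 62.2 CPM in Maf-KO gut, 12.4, 7.01 and 22.5 CPM in WT spleen and 44.3, 8.38 and 6.53 CPM in Maf-KO spleen. The tissues were separate in WT and overlapped in Maf-KO through replicate 1 of its spleen. Lag3 did not pass in either genotype, with a gut to spleen ratio of 2.53 in WT (95% interval 0.834 to 7.69, edgeR adjusted p = 0.197) and 2.64 in Maf-KO (0.889 to 7.86, edgeR adjusted p = 0.170). With the shared title number as a block it passed in WT, with an adjusted p of 0.0430 (limma, random effect) and 0.00598 (edgeR, fixed term). It passed in Maf-KO as well, with 0.00273 (limma, random effect) and 5.00e-05 (edgeR, fixed term). Without Maf-KO spleen replicate 1 the Maf-KO log2 fold change was 2.80 (edgeR adjusted p = 0.00333) and the WT edgeR adjusted p was 0.0358. The fixed term in effect leaves that library out as well (log2 fold change 2.79), so these Maf-KO results are not separate observations. In WT it leaves out WT spleen replicate 2 in the same way. Over all alternatives the adjusted p lay within 0.00457 to 0.408 in WT and 5.00e-05 to 0.464 in Maf-KO.

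Havcr2 (chromosome 11, 46454931 to 46481255) had 60.7 and 56.0 CPM in WT gut and 31.8 and 73.7 CPM in Maf-KO gut. In spleen it had 6.49, 3.16 and 5.79 CPM in WT and 8.90, 8.04 and 4.88 CPM in Maf-KO. All gut libraries were above all spleen libraries, and the Maf-KO gut libraries differed most from each other. Havcr2 was 11.4-fold higher in gut in WT (log2 fold change 3.51, SE 0.40, edgeR adjusted p = 1.78e-04) and 7.27-fold in Maf-KO (2.86, SE 0.39, edgeR adjusted p = 5.35e-04). Kit, a receptor gene known from mast cells, was the closest of all genes to Havcr2 over the libraries, and its part in the result was not tested.

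Cd160, Cd200r1 and Cd244 encode receptors that bind HVEM, CD200 and CD48, respectively. Cd160 (chromosome 3, 96798763 to 96829351), a gene also used by cytotoxic and intraepithelial lymphocytes, had 125 and 107 CPM in WT gut and 180 and 148 CPM in Maf-KO gut. In spleen it had 27.4, 22.4 and 20.2 CPM in WT and 30.3, 19.0 and 32.8 CPM in Maf-KO. The lowest gut library was above the highest spleen library. Cd160 was 4.96-fold higher in gut in WT (3.55 to 6.92, edgeR adjusted p = 5.18e-05) and 5.99-fold in Maf-KO (4.29 to 8.36, edgeR adjusted p = 2.84e-05). Gzma, Xcl1 and Prf1 of the CD8, NK and innate lymphoid markers were called higher in gut too. Of the same list 3 were called lower in WT and 2 in Maf-KO, Cd8b1 among them in both. Their part in the result was not tested.

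Cd200r1 (chromosome 16, 44765736 to 44794977) had 283 and 259 CPM in WT gut and 191 and 171 CPM in Maf-KO gut. In spleen it had 75.8, 55.6 and 80.4 CPM in WT and 107, 77.4 and 77.3 CPM in Maf-KO. The groups were ordered WT gut, Maf-KO gut and then spleen without overlap. Cd200r1 was 3.83-fold higher in gut in WT (2.90 to 5.08, edgeR adjusted p = 5.18e-05) and 2.08-fold in Maf-KO (1.57 to 2.75, edgeR adjusted p = 0.00209). Related genes of the same family were far less abundant, with Cd200r4 at 21.2 to 35.9 CPM in gut and 4.72 to 9.16 CPM in spleen, and how reads shared between them were counted is not recorded in the labels.

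Cd244 (chromosome 1, 171558718 to 171585316, overlapping the predicted gene Gm35200) was the least abundant of the receptors. It had 4.90 and 5.56 CPM in WT gut, 12.3 and 7.75 CPM in Maf-KO gut, 4.36, 1.31 and 6.17 CPM in WT spleen and 2.50, 4.52 and 1.27 CPM in Maf-KO spleen. WT gut lay inside the range of WT spleen, and both Maf-KO gut libraries were above Maf-KO spleen. The difference was 1.34-fold in WT (0.522 to 3.42, edgeR adjusted p = 0.652) and 3.63-fold in Maf-KO (1.44 to 9.16, edgeR adjusted p = 0.0416). The Maf-KO call was lost in 10 of 20 alternatives. These included leaving out Maf-KO gut replicate 2 (edgeR adjusted p = 0.198), Maf-KO gut replicate 3 (0.0737), Maf-KO spleen replicate 1 (0.0985) or Maf-KO spleen replicate 3 (0.107). Leaving out WT gut replicate 1 (0.0551), WT gut replicate 3 (0.0555) or WT spleen replicate 1 (0.0571), none of which is in the contrast, ended it too, within 0.00259 to 0.198 over all alternatives.

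Cd5 (chromosome 19, 10718107 to 10739026) had 598 and 540 CPM in WT gut, 771 and 811 CPM in Maf-KO gut, 548, 557 and 504 CPM in WT spleen and 486, 543 and 559 CPM in Maf-KO spleen. Maf-KO gut stood above the other 8 libraries, which lay between 486 and 598 CPM. Cd5 was 1.49-fold higher in gut in Maf-KO (1.26 to 1.77, edgeR adjusted p = 0.00354). In WT the ratio was 1.06 (0.894 to 1.26, edgeR adjusted p = 0.609), and by library totals alone the WT log2 fold change was -0.18. The 2 tissue effects were not shown to differ after adjustment, as given with the genotype comparison.

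**Figure D2:**
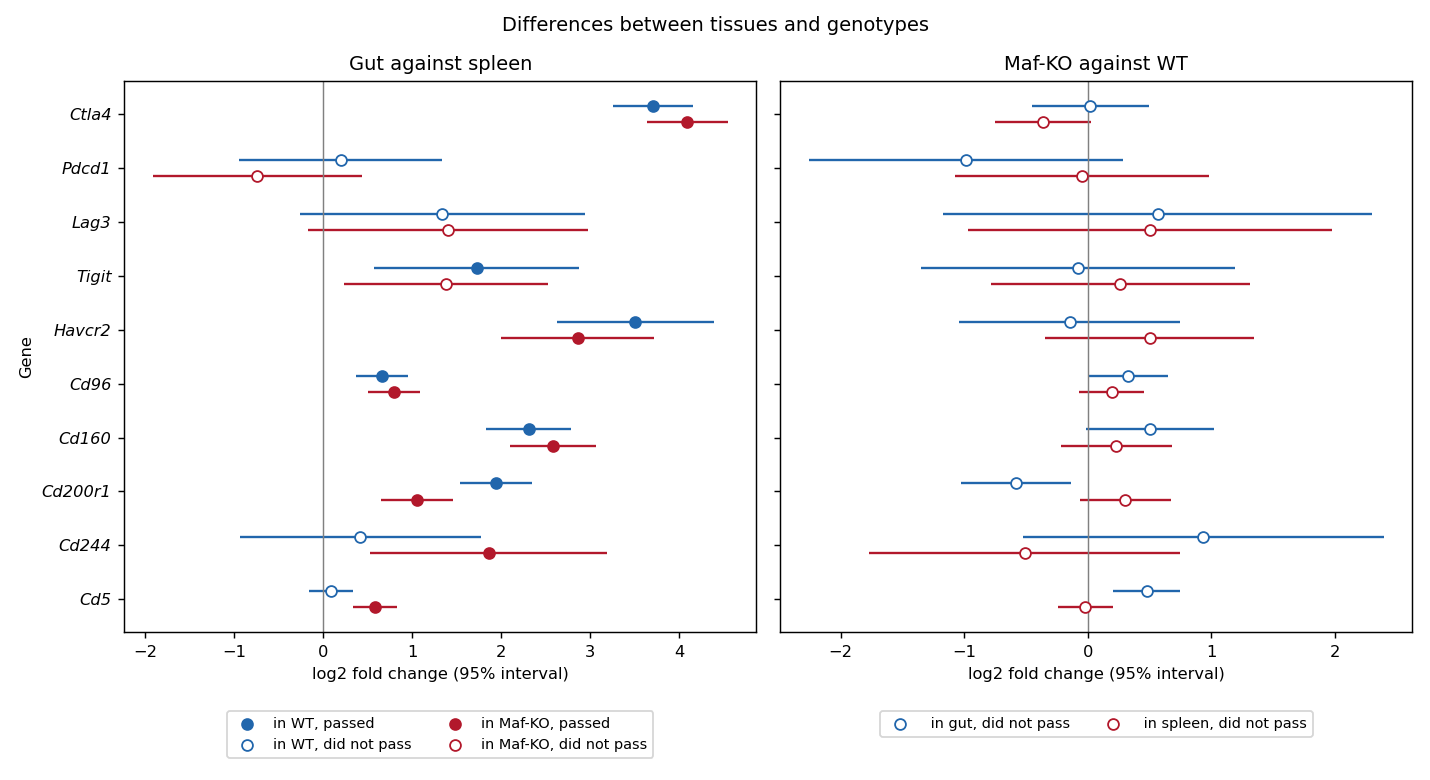
Log2 fold changes of the 10 receptors with 95% intervals from edgeR, gut against spleen in WT and Maf-KO on the left and Maf-KO against WT in gut and spleen on the right, with filled points where the adjusted p was under 0.05. Filled points occur on the left, all above 0, and none occurs on the right.

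A gut and a spleen library shared a title number in 4 cases, 2 per genotype, and the difference within each pair can be read without a group mean. Log2 CPM in gut minus spleen was positive in 4 of 4 pairs for 8 receptors, where 30.7% of all genes were. The range was 3.25 to 4.32 for Ctla4, 1.96 to 3.87 for Havcr2, 2.16 to 3.24 for Cd160 and 1.36 to 2.25 for Tigit. For Lag3 it was 0.80 to 3.21, for Cd200r1 1.14 to 1.90, for Cd96 0.61 to 0.85 and for Cd5 0.10 to 0.54. Cd244 was positive in 3 of 4 pairs (-0.15 to 2.44) and Pdcd1 in 1 of 4 (-0.32 to 0.48). The 2 Maf-KO pairs were above the 2 WT pairs for Lag3, Tigit, Ctla4, Cd244 and Cd5. They were below the WT pairs for Cd200r1, and no test over all genes called such a difference. Maf-KO spleen replicate 1, high in Lag3 and Tigit (44.3 and 226 CPM), is in no pair. WT spleen replicate 3, also high (22.5 and 174 CPM), is in a WT pair. WT spleen replicate 2, which is low (7.01 and 69.6 CPM), is in none. With every library, the edgeR tissue effect in Maf-KO minus that in WT was 0.06 for Lag3 (SE 1.02). For Tigit it was -0.34 (SE 0.74), opposite in sign to the pairs. It kept their sign for Ctla4, Cd244, Cd5 and Cd200r1. Of all genes tested, 19.2% had both Maf-KO pairs above both WT pairs and 18.1% had them below.

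**Figure D3:**
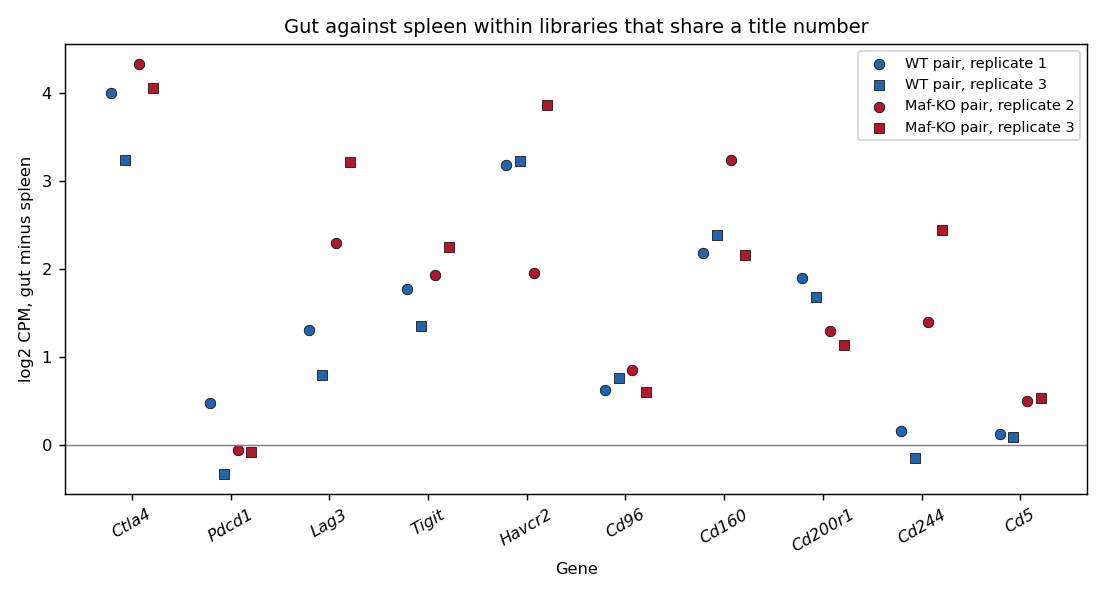
Log2 CPM in gut minus spleen for each receptor within the 4 pairs of libraries that share a title number, with WT pairs in blue and Maf-KO pairs in red. Ctla4, Havcr2 and Cd160 lie at 1.96 or more in every pair, and Pdcd1 lies between -0.32 and 0.48.

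In Pdcd1, Tigit and Lag3 the same pair of spleen libraries was high. Replicate 3 of WT spleen and replicate 1 of Maf-KO spleen had 458 and 469 CPM of Pdcd1, against 146 to 192 CPM in the other 4. For Tigit they had 174 and 226 CPM against 69.6 to 82.2 CPM, and for Lag3 22.5 and 44.3 CPM against 6.53 to 12.4 CPM. Cd200r1 was also higher in both (80.4 and 107 CPM against 55.6 to 77.4 CPM), and Cd5 (504 and 486 CPM against 543 to 559 CPM) and Cd96 (349 and 387 CPM against 391 to 505 CPM) were lower in both. Ctla4, Havcr2, Cd160 and Cd244 in this pair overlapped the other 4, and low-count Cd244 ranged from 1.27 to 6.17 CPM over the 6 libraries without following it. The pair has 1 library of each genotype, so it adds spread to both spleen groups. Outside the receptors, Icos, a costimulatory receptor gene, had 439 and 341 CPM in these libraries against 215 to 265 CPM, and Prdm1, which encodes the effector T cell factor Blimp-1, 104 and 124 CPM against 47.0 to 60.0 CPM. The neutrophil gene S100a8 had 321 CPM in WT spleen replicate 3, 19.4 CPM in Maf-KO spleen replicate 1 and 14.7 to 122 CPM in the others, and the plasma cell gene Jchain had 112 and 107 CPM in the pair against 44.0 to 104 CPM. Their part in the receptor levels was not tested.

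**Figure D4:**
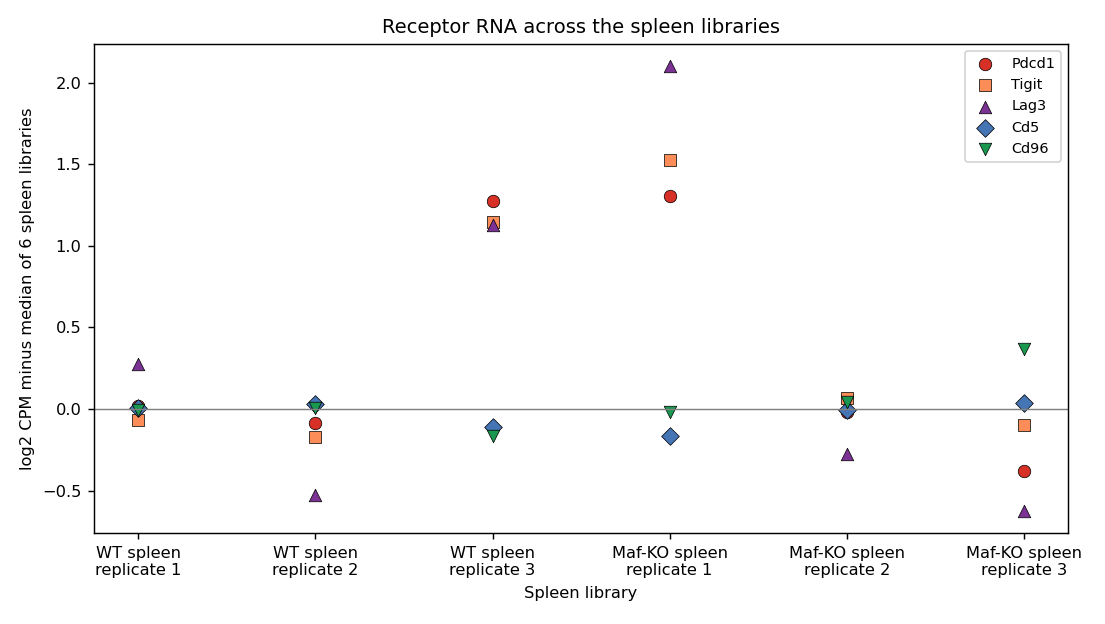
Log2 CPM of Pdcd1, Tigit, Lag3, Cd5 and Cd96 in each of the 6 spleen libraries, minus the gene's median over these libraries. Pdcd1, Tigit and Lag3 are 1.13 to 2.10 above their medians in replicate 3 of WT spleen and replicate 1 of Maf-KO spleen, where Cd5 is 0.11 and 0.17 below its own.

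The genotype comparison asks what loss of c-Maf does to the receptors' RNA. In gut 0 of 10 receptors were called by edgeR, where 0.151% of all genes tested were called (20 genes, and 42 with the shared title number as a block). At an unadjusted p under 0.05 there were 3 of 10, where 8.14% of all genes were. DESeq2 called 1 of the 10, where it called 112 of the 13214 genes tested, and limma-voom called 0 of the 10. Cd5 was higher in both Maf-KO gut libraries than in both WT gut libraries (log2 fold change 0.48, SE 0.12, 95% interval 0.20 to 0.75), with an edgeR adjusted p of 0.294 and a DESeq2 adjusted p of 0.0151, within 0.0151 to 0.889 over all alternatives. Cd200r1 was lower in both Maf-KO gut libraries (-0.58, SE 0.20, interval -1.03 to -0.14, edgeR adjusted p = 0.489). Cd96 differed by 0.33 (SE 0.14, interval 0.00 to 0.65, edgeR adjusted p = 0.607). In gut 5 receptors were higher and 2 lower without overlap between genotypes, and 17.4% and 18.8% of all genes were so. Of the 6 tested pancreatic markers, 5 had an unadjusted p under 0.05 in this comparison and 0 were called by edgeR, and their part in the receptor values was not tested.

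For the others the intervals in gut show what the 4 gut libraries leave possible under a spread estimated over all 10 libraries. For Ctla4 the ratio of Maf-KO to WT was 1.01 (95% interval 0.732 to 1.41), so that a change by a factor of 2 lies outside the interval in either direction. For Pdcd1 the ratio was 0.505 (0.210 to 1.22), with both Maf-KO gut libraries below both WT gut libraries. The ratio was 1.42 (0.989 to 2.03) for Cd160, 0.905 (0.487 to 1.68) for Havcr2 and 0.946 (0.393 to 2.28) for Tigit. For Lag3 it was 1.48 (0.444 to 4.93) and for Cd244 1.91 (0.694 to 5.25), intervals that hold changes of several-fold. None of these passed, with edgeR adjusted p values from 0.626 for Cd160 to 0.991 for Ctla4.

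For spleen, 0 of 10 receptors were called by edgeR, DESeq2 or limma-voom, where edgeR called 0.0151% of all genes, and 0 of 10 had an unadjusted p under 0.05, where 2.85% of all genes had one. Ctla4 was lower in all 3 Maf-KO spleen libraries than in all 3 WT spleen libraries, the 1 receptor of 10 whose groups did not overlap, where 3.91% of all genes were lower in this way and 3.59% higher. Its ratio was 0.779 (95% interval 0.595 to 1.02, edgeR adjusted p = 0.999). Cd5 (ratio 0.987, interval 0.846 to 1.15) and Cd96 (1.14, 0.953 to 1.37) had the narrowest intervals. The widest were those of Lag3 (0.510 to 3.94), Cd244 (0.294 to 1.67) and Tigit (0.580 to 2.49), and that of Pdcd1 ran from 0.476 to 1.97. Over the mean of both tissues edgeR called 0 of 10, where 0.242% of all genes were called (32 genes, and 9 with the shared title number as a block), with Cd96 (0.26), Cd5 (0.23) and Cd160 (0.36, log2 fold change) at an unadjusted p under 0.05 and 9.24% of all genes so. DESeq2 and limma-voom called 0 of 10 there as well.

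The difference of the genotype effect between gut and spleen was tested directly. By edgeR 0 of 10 receptors and 0% of all genes were called, and 2 of 10 had an unadjusted p under 0.05, where 3.19% of all genes had one. These were Cd200r1 (log2 difference -0.88, SE 0.26, 95% interval -1.46 to -0.31) and Cd5 (0.49, SE 0.16, 0.14 to 0.84), both with an edgeR adjusted p of 0.9999, within 0.368 to 1 for Cd200r1 and 0.355 to 1 for Cd5 over all alternatives. DESeq2 and limma-voom called 0 of 10. The gut effect and the tissue effects share libraries, so the lower Cd200r1 in Maf-KO gut and its smaller tissue ratio in Maf-KO are not separate observations, and the same holds for Cd5.

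Ligands of the receptors were measured in the same Tregs, from a list of 17 genes with 13 tested. In each genotype 2 were higher in gut and 2 lower, so that 4 of 13 were called, near the 28% of all genes called in WT and 28.6% in Maf-KO. Cd274, the PD-L1 gene, had 245 CPM in WT gut and 97.6 CPM in WT spleen (means, n = 2 and 3), a log2 fold change of 1.33 (edgeR adjusted p = 1.84e-05). Pdcd1lg2, the PD-L2 gene, rose by 0.89 (edgeR adjusted p = 0.0170). Cd86, a CTLA-4 ligand, fell by 1.03 on the log2 scale (edgeR adjusted p = 0.00129) and Cd48, the CD244 ligand, by 0.58 (0.0190, edgeR adjusted). In Maf-KO the log2 fold changes of these genes were 1.31, 0.79, -1.26 and -0.56, all called by edgeR. By library totals alone 1 ligand was higher and 4 lower in each genotype.

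Costimulatory receptors, the activating counterparts, comprised 16 genes, all tested. In each genotype 9 were higher and 2 lower in gut, where 14.7% of all genes were called higher and 13.3% lower in WT, and 14.4% and 14.1% in Maf-KO. The median log2 fold change was 0.71 in WT and 0.58 in Maf-KO, and that of all genes -0.03 and -0.02. By library totals alone 8 were higher and 3 lower in WT, and 7 and 3 in Maf-KO. Icos rose from 306 to 1625 CPM in WT (log2 fold change 2.41, edgeR adjusted p = 2.07e-04) and Cd40lg, the CD40 ligand gene, from 47.2 to 226 CPM (2.26, edgeR adjusted p = 7.99e-06). Slamf1 (1.43) and Tnfrsf1b (1.97), which encode a SLAM receptor and TNF receptor 2, rose as well. In the genotype comparison none was called by edgeR, and Slamf1 came nearest, at -0.67 over the mean of both tissues (edgeR adjusted p = 0.05003). Slamf1 was called lower there by edgeR with library totals alone and by limma on the deposited log2 FPKM.

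A further list held other inhibitory receptors and surface proteins of the module that IL-27 induces in T cells, such as the ectoenzyme gene Nt5e, 18 genes with 16 tested. In WT 2 were higher and 6 lower in gut, and in Maf-KO 3 were higher and 5 lower, where 28% and 28.6% of all genes were called either way. By library totals alone 2 were higher and 8 lower in WT, and 3 and 6 in Maf-KO. Btla, a receptor for HVEM like Cd160, fell from 171 CPM in spleen to 69.3 CPM in gut in WT (means, edgeR adjusted p = 2.13e-04) and fell in Maf-KO as well (edgeR adjusted p = 3.28e-05). Klrg1, a marker of differentiated T cells, rose by 2.83 and 2.78, while Siglecg changed by -3.47 and -3.00, and Pecam1 by -1.64 in WT. Cd6, a relative of Cd5, rose in gut in WT (0.76, edgeR adjusted p = 0.00313) and in Maf-KO (1.22, edgeR adjusted p = 2.02e-04). In gut its difference between genotypes was 0.61 (edgeR adjusted p = 0.283), beside 0.48 for Cd5.

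Genes of signalling and traffic below the receptors were tested next. Of 20 tested adaptors and phosphatases 5 were higher and 3 lower in gut in WT, and 7 higher and 2 lower in Maf-KO, where 28% and 28.6% of all genes were called either way. Library totals alone changed the split to 1 and 7 in WT and 2 and 7 in Maf-KO. Dok1, an inhibitory adaptor gene, rose by 1.25 in WT and 1.15 in Maf-KO. Of 13 genes of CTLA-4 traffic and receptor shedding, 1 was higher and 2 lower in gut in WT, and 1 and 1 in Maf-KO, beside the same shares of all genes. Lrba, whose product protects CTLA-4 from degradation, rose in WT (0.73, edgeR adjusted p = 0.0364) and was not called in Maf-KO. Lax1 fell by 1.15 on the log2 scale in WT and by 1.20 in Maf-KO (edgeR adjusted p = 0.00349 and 0.00270). Ap1m1 was called lower in WT (-0.51, edgeR adjusted p = 0.0142) and Arf1 higher in Maf-KO (0.42, edgeR adjusted p = 0.0357). By library totals alone 0 traffic genes were higher and 5 lower in each genotype. That scaling called 3938 of 13214 genes lower in WT and 3701 in Maf-KO.

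Transcription factors and other regulators known to act on these receptor genes numbered 23, all tested. Among them was Il6st, a cytokine receptor subunit gene, and Maf itself was not in the list. In WT 11 were higher and 4 lower in gut, and in Maf-KO 12 were higher and 3 lower, where 28% and 28.6% of all genes were called either way. By library totals alone 10 were higher and 6 lower in each. The orphan nuclear receptor genes Nr4a1, Nr4a2 and Nr4a3, induced by T cell receptor signals, had the lowest p values. Nr4a1 averaged 3095 CPM in WT gut and 114.8 CPM in WT spleen (log2 fold change 4.75, edgeR adjusted p = 1.85e-07), Nr4a2 332 and 12.05 CPM (4.78) and Nr4a3 62.8 and 3.03 CPM (4.36). Irf4 rose by 2.02 in WT, and Tcf7, a factor of resting T cells, fell by 2.19 on the log2 scale in Maf-KO. In the genotype comparisons edgeR with TMM scaling called none of the 23, nor any gene of the ligand, costimulatory, inhibitory, adaptor and traffic lists. Maf, outside these lists, was called lower in Maf-KO in gut (edgeR adjusted p = 4.51e-04) and in spleen (edgeR adjusted p = 0.00188).

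Genes whose log2 CPM followed a receptor most closely over the 10 libraries were listed for the 8 receptors called in any comparison, as a description in which the tissue difference is shared by all points. For Ctla4 they were Nr4a2, Ifrd1 and Dgat1, each with a Pearson r of 0.996. For Tigit they included Ryk (0.986) and the chemokine receptor gene Ccr8 (0.975), and they were for Havcr2 Kit (0.981), Ell2 (0.981) and M6pr (0.980), and for Cd160 Mkrn2 (0.994), Ctsw (0.992) and Pgm1 (0.991). Kit had 62.4 to 104 CPM in gut and 3.16 to 5.75 CPM in spleen. In each genotype 6 of the 10 mast cell and eosinophil markers had 0 counts in gut, Mcpt8 and Fcer1a among them. Of the same list, Hdc had 2.959 to 5.75 CPM in gut and 1.302 to 15.48 CPM in spleen. Cpa3 had 0.2396 to 0.8799 CPM in gut and 0.434 to 1.779 CPM in spleen. Which cells the Kit RNA came from was not tested. For Cd96 they were Tmem167b (0.989), Soat2 (0.983) and Ubald1 (0.979), and for Cd200r1 M6pr, Acadl and Dsel (each 0.982). For Cd244 they were Msr1 (0.925), Thbs1 (0.921) and Pygl (0.914), with Msr1 a scavenger receptor gene of macrophages, and for Cd5 Mthfd2 (0.965), Gm10145 (0.955) and Slc35d1 (0.953).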

How the data were processed

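The deposited table holds raw read counts per gene, made by the authors and not normalised; the log2 files hold the authors' log2 FPKM values. Per the submitters' processing notes, Subread, featureCounts and limma were used with GRCm38 and mm10. The labels record no version, annotation or strand setting. Groups came from the labels. The 10 receptors and the gene lists were chosen with earlier results of these data known.

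Receptor counts were tested with edgeR 4.0.16 (R 4.3.3), using filterByExpr over the 4 groups (minimum count 10, minimum total 15), TMM scaling (factors 0.887 to 1.12), and the quasi-likelihood test on a model of the 4 group means over all 10 libraries, two-sided, with Benjamini-Hochberg adjustment over 13214 genes and calls at an adjusted p under 0.05. Log2 CPM used a prior count of 2. Total counts per library were 8567035 to 13983965, and the floor of 3 counts covers counting error only. The 852 entries with a gene ID but no symbol held 0.173 to 0.203% of the counts and stayed in the library totals. Replicates varied by more than counting (chi-square per degree of freedom 14.8 to 35.1). The fit was tested on simulated data with known changes.

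All 10 receptors are named, together with up to 4 called genes of each list by adjusted p (or up to 2 by unadjusted p where none was called) and the 3 genes that correlate best with each called receptor, of which 1 is not reported here. Alternatives were DESeq2 1.42.0, limma 3.58.1 (voom, and trend on log2 FPKM), other scalings, no filter, the compared groups alone, each library left out, and replicate blocks. Residuals of the gut and spleen libraries that share a title number correlated at 0.313, 0.255, 0.382 and 0.36, each over 0.1. This number was therefore taken to pair them in the replicate blocks and in the differences within pairs. The reported edgeR tests had no block and treated the 10 libraries as independent, also for the mean of both tissues. Positions and sequences are from RefSeq tables of GRCm38.p6.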

Additional observations from a re-analysis of the deposited data

How the results depend on the processing

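Over 20 alternatives the number of receptors called higher in gut was 5 to 8 of 10 in WT and 6 to 9 in Maf-KO (5 to 7 and 6 to 8 when 1 library was left out, where a lone gut library of a group is assumed to vary like the other groups), and 0 were called lower. The genotype comparisons gave 0 calls under every alternative run, except that DESeq2 called 1 receptor higher in gut, Cd5. With the shared title number as a replicate block the calls that changed were Lag3 in WT (adjusted p = 0.0430 by limma) and Lag3 and Tigit in Maf-KO. A replicate block on the label's replicate number, which does not pair the spleen libraries (residual correlations -0.0394, -0.183 and -0.347), changed no genotype call of a receptor. Of 1180 single values under the alternatives 1109 kept direction and side of the threshold, 18 gained a call, 13 lost one and 40 uncalled values changed sign, and 0 called values reversed. Over all genes the number called ranged from 3 to 112 in gut between genotypes (20 as reported), 0 to 19 in spleen (2), 9 to 126 for the mean of both tissues (32), 2216 to 5498 between tissues in WT (3703) and 2157 to 5778 in Maf-KO (3774). DESeq2 gave the highest of these in both tissues and their mean, and leaving out Maf-KO gut replicate 2 gave the lowest in gut. Leaving out any 1 gut library lowered the count in gut to 3 to 8. For the difference between tissues the count was 0 to 8 (0 as reported). Gut had only 2 libraries per genotype. Lag3 and Cd244 carried the widest log2 intervals in each comparison, while Havcr2, with fewer counts than Lag3 in spleen, had narrower ones.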
